A study of Drosophila melanogaster with 6 samples.

Results

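The Bomanins are a family of small immune peptides of Drosophila, and their genes were followed here in larvae labelled as Pof mutant and in wild type larvae. The genes were taken by name from a list of 9, of which BomS2, BomS4, BomS5, BomS6, BomBc2 and BomBc3 each had 1 probe set with a single gene name, so that 6 genes of the 11982 measured are described. BomS1, BomS3 and BomBc1 had no paired single-gene probe set and were not analysed here. RNA of whole larvae of instar 1 was measured on 6 Affymetrix arrays, 3 of mutant-labelled larvae (allele D119 in the series title) and 3 of wild type larvae, each made from a pool of 200 animals of mixed sex and tissue. Pof encodes a protein that binds along chromosome 4 of the fly. The labels give neither the parents' stocks, nor the hours after hatching, nor what the allele removes, nor any treatment or infection.

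Bomanins are secreted into the hemolymph, mostly by the fat body, an organ with roles like those of liver and adipose tissue. Their genes are induced by the Toll pathway, in which the processed cytokine Spz binds the receptor Tl and frees the NF-kappaB factors Dif and dl from the inhibitor cact. Flies without the main gene cluster resist Gram-positive bacteria and fungi poorly. Short Bomanins (BomS) consist of little more than the Bomanin motif, tailed ones (BomT) carry an extension after it, and bicipital ones (BomBc) join a pair of motifs by a linker. Separate roles for BomS4, BomS5, BomS6, BomBc2 and BomBc3 are not stated here. BomS2 is the peptide first described as immune-induced molecule IM2.

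The family was chosen by its values in this same contrast, in which BomS6 and BomS4 were already known to stand among the lowest differences; every member was then taken by name. Their differences between the groups are therefore given as a description, with no p-value. Values are log2 expression values made with RMA, differences are Pof mutant minus wild type, SE is limma's moderated standard error, and a call means a Benjamini-Hochberg adjusted p under 0.05 over all 18769 probe sets. Each probe set has its own brightness, so levels are compared between arrays and not between genes.

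Several facts of the arrays bear on the results. Pof itself had values of 8.35, 8.44 and 8.43 on the mutant-labelled arrays, against 6.74, 6.83 and 6.82 on the wild type arrays. A higher signal under the mutant label would go against it if the allele lowers this transcript, and where the probe set lies with respect to the lesion is unknown, so the directions below rest on the labels. Wild type replicate 1 stood apart from the other wild type arrays (r = 0.980 and r = 0.979), which correlated at r = 0.998 with each other. On that array 21 of 31 measured Twdl and Lcp genes of the larval cuticle exceeded the average of wild type replicates 2 and 3 by more than 2-fold. On mutant-labelled replicate 2 the excess of 3' over 5' signal, averaged over 3 housekeeping controls (actin, eIF-4a, GAPDH), was 2.03 (log2), against 1.20 to 1.48 on the other arrays. Array medians lay between 6.46 and 6.56.

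BomS4 and BomS6, both short Bomanins, were lower on the mutant-labelled arrays, while the short Bomanins BomS2 and BomS5 and the bicipital BomBc2 and BomBc3 had overlapping values in the groups. Of the 6 genes 2 were called lower and 0 higher, where 1.44% of all genes were called lower and 2.65% higher (4.09% either way). The same 2 had groups that did not overlap, with the mutant-labelled values below the wild type values, as had 7.95% of all genes. The opposite arrangement was seen in 0 of the 6 and in 14.5% of all genes. The median difference of the 6 was -0.36, with a range of -2.21 to 0.52, against a median of 0.02 over all genes. The median of the 6 was -0.02 without wild type replicate 1 and -0.27 without mutant-labelled replicate 2, while the count of calls stayed at 2 lower and 0 higher. In whole-larva RNA, fewer cells of a type and less RNA per cell cannot be told apart.

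**Figure D1:**
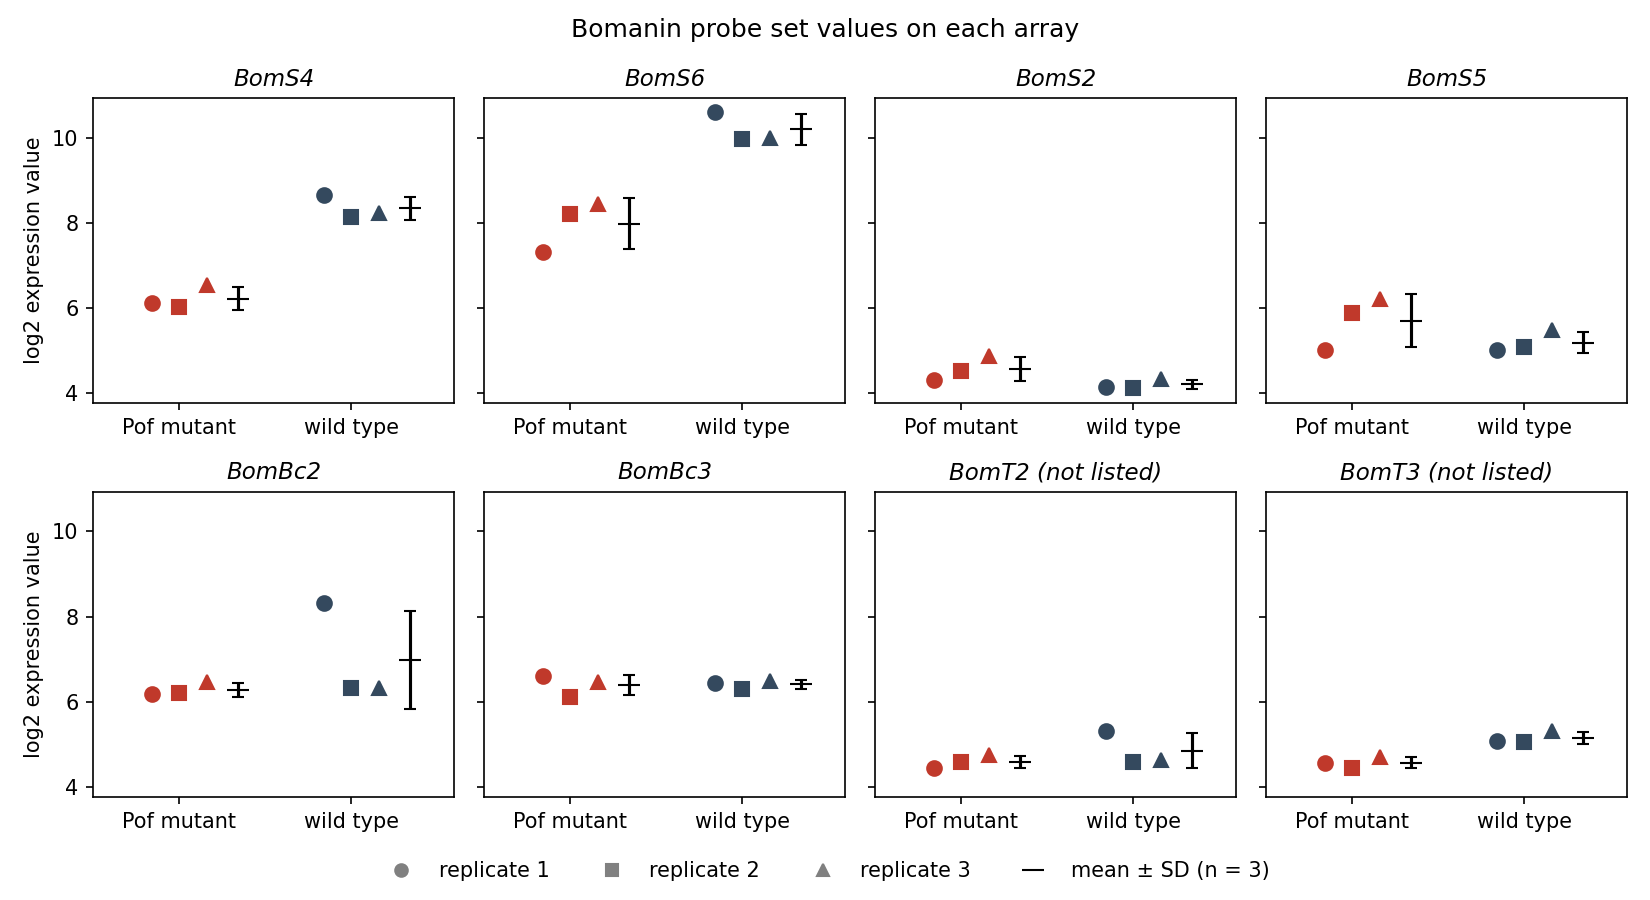
Log2 expression values (vertical axis) of 8 Bomanin probe sets on each array, with the Pof mutant arrays left of the wild type arrays; marker shapes give the replicate, and the black bar is the group mean ± SD (n = 3). BomS4 and BomS6 are the listed genes whose groups are separate, and BomBc2 has 1 wild type array, replicate 1, far above the rest.

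BomS6 gave the lowest difference of the 6 genes. Its values were 7.31, 8.21 and 8.44 on the mutant-labelled arrays, against 10.61, 9.97 and 10.00 on the wild type arrays. The highest mutant-labelled value thus lay below the lowest wild type value, and the spread was wider under the mutant label because replicate 1 lay well under the other two. The means were 7.98 ± 0.60 under the mutant label and 10.19 ± 0.36 in wild type (SD, n = 3 each), a difference of -2.21 (SE 0.31), or 4.62-fold lower. Its difference ranked 12 from the lowest among the 11982 genes.

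BomS4 behaved much like BomS6. It read 6.11, 6.02 and 6.53 on the mutant-labelled arrays, against 8.65, 8.15 and 8.24 on the wild type arrays. The groups did not overlap, and the SDs of the groups were nearly equal (0.27 under the mutant label and 0.27 in wild type). The means of 6.22 under the mutant label and 8.35 in wild type differed by -2.13 (SE 0.18), which is 4.36-fold lower, and ranked 14 from the lowest. Both genes were brightest on wild type replicate 1, the array that stood apart. Without that array the differences were -2.00 for BomS6 and -1.97 for BomS4, and without mutant-labelled replicate 2 they were -2.32 for BomS6 and -2.02 for BomS4.

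BomS5 and BomS2 pointed the other way without a call. BomS5 read 5.02, 5.87 and 6.22 on the mutant-labelled arrays, against 5.01, 5.07 and 5.47 on the wild type arrays. Replicates 2 and 3 of the mutant-labelled group lay above all wild type values, whereas replicate 1 lay among them. Its difference was 0.52 (SE 0.29, limma's 95% interval -0.18 to 1.21). BomS2 read 4.30, 4.52 and 4.86 on the mutant-labelled arrays, against 4.16, 4.12 and 4.33 on the wild type arrays. Here too mutant-labelled replicate 1 lay within the wild type range, and the difference was 0.36 (SE 0.14, limma's 95% interval 0.01 to 0.70). BomS2 lay below the lower quartile of all probe sets on 6 of 6 arrays and BomS5 on 3 of 6. No detection calls were used, so whether these dim signals stood above background is unknown, and RMA compresses differences of dim probe sets.

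**Figure D2:**
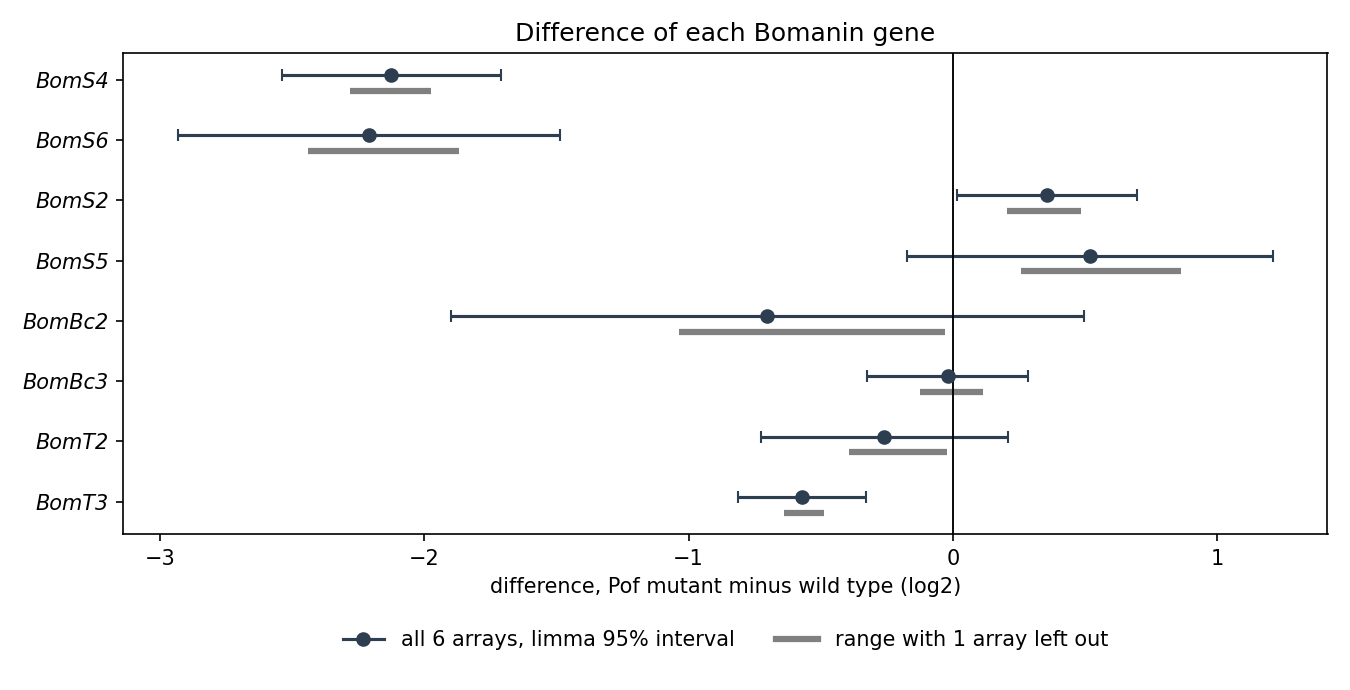
Difference of each Bomanin gene, Pof mutant minus wild type, on a log2 axis; points and dark bars give the value from 6 arrays with limma's 95% interval, and grey bars the range when 1 array is left out. The grey bars run from -2.28 to -1.97 for BomS4, from -2.44 to -1.87 for BomS6 and from -1.04 to -0.03 for BomBc2. BomS4 and BomS6 were already known to be low when the family was chosen, and the intervals take no account of that choice.

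The bicipital genes differed little once 1 array was set aside. BomBc2 read 6.18, 6.20 and 6.47 on the mutant-labelled arrays, against 8.32, 6.31 and 6.31 on the wild type arrays. Wild type replicate 1 alone was high, 4.03-fold above the average of replicates 2 and 3, and the remaining values of both groups overlapped. The difference was -0.70 (SE 0.51) with all arrays and -0.03 without wild type replicate 1. BomBc3 read 6.60, 6.12 and 6.46 on the mutant-labelled arrays, against 6.45, 6.30 and 6.50 on the wild type arrays, and its groups overlapped. Its difference was -0.02 (SE 0.13, 95% interval -0.33 to 0.28).

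The array that carried the high BomBc2 value also carried high cuticle signal. The unlogged values of the 31 Twdl and Lcp genes summed to 36382 to 41448 on the mutant-labelled arrays, against 100844 on wild type replicate 1 and 39038 and 40959 on the other wild type arrays. Of these genes 24 of 31 were highest on wild type replicate 1, and 1 lay below the lower quartile on every array. In the contrast 1 was called lower and 0 higher, where 1.44% of all genes were called lower and 2.65% higher. Their part in the BomBc2 value was not tested. The genes nearest to BomBc2 in profile, named after their values were seen, were the cuticle protein gene Cpr65Ec, CG13748 and CG9095. Their profiles over the 6 arrays, centred on each gene's mean, lay at root mean square distances of 0.08, 0.09 and 0.09 (log2) from that of BomBc2. Cpr65Ec read 6.15, 6.27 and 6.31 on the mutant-labelled arrays, against 8.39, 6.32 and 6.28 on the wild type arrays. On wild type replicate 1, BomS6, BomS4 and the tailed BomT2 lay 1.54-fold, 1.37-fold and 1.64-fold above the average of the other wild type arrays. BomBc3 lay at 1.03 times that average, the tailed BomT3 at 0.93, BomS2 at 0.95 and BomS5 at 0.83 times. By this measure BomS2 ranked 6819 and BomS5 10419 from the highest among 11982 genes, so BomS2 stood near the middle.

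The tailed genes BomT2 and BomT3 were not among the listed names but had single-gene probe sets. BomT3 read 4.55, 4.45 and 4.71 on the mutant-labelled arrays, against 5.07, 5.05 and 5.30 on the wild type arrays. The groups did not overlap, and BomT3 was lower by -0.57 (SE 0.10, limma adjusted p = 0.0326). The call did not survive leaving out any of wild type replicates 2 and 3 or mutant-labelled replicates 1, 2 and 3 (limma adjusted p between 0.0518 and 0.114). The BomT3 difference lay between -0.64 and -0.49 in those fits. Over all genes 202 to 300 were called in them, against 490 with all arrays. Without wild type replicate 1 the BomT3 call held (-0.61, limma adjusted p = 0.0323). Its adjusted p lay under 0.05 in 9 of the 14 alternatives that held it. BomT2 read 4.45, 4.58 and 4.74 on the mutant-labelled arrays, against 5.33, 4.58 and 4.64 on the wild type arrays, so that its groups overlapped (-0.26, SE 0.20, limma adjusted p = 0.679). Both tailed genes lay below the lower quartile on 5 of 6 arrays.

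The reference annotation (Release 6 plus ISO1 MT) places 10 Bomanin genes next to one another on arm 2R, in the order BomT1, BomBc1, BomS1, BomS4, BomBc2, BomS2, BomS3, BomT2, BomS5 and BomS6. Of these 10, 6 were measured. BomT3 and BomBc3 lie side by side on arm 3R. The called genes BomS4 and BomS6 were not adjacent, and the measured genes between them had differences from -0.70 to 0.52. BomS5 and BomS6 are direct neighbours and had differences of opposite sign. The spans of BomS4 and BomBc2 overlap in the annotation, and cross-reading between their probe sets was not tested. The nearest measured genes outside the 2R run were CG14505, with a difference of 0.14 (limma adjusted p = 0.679), and Idgf5, a gene of the imaginal disc growth factors, with -0.08 (adjusted p = 0.872). On 3R, CG13408 and CG13407 gave 0.07 and 0.04 (limma adjusted p = 0.839 and 0.937).

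**Figure D3:**
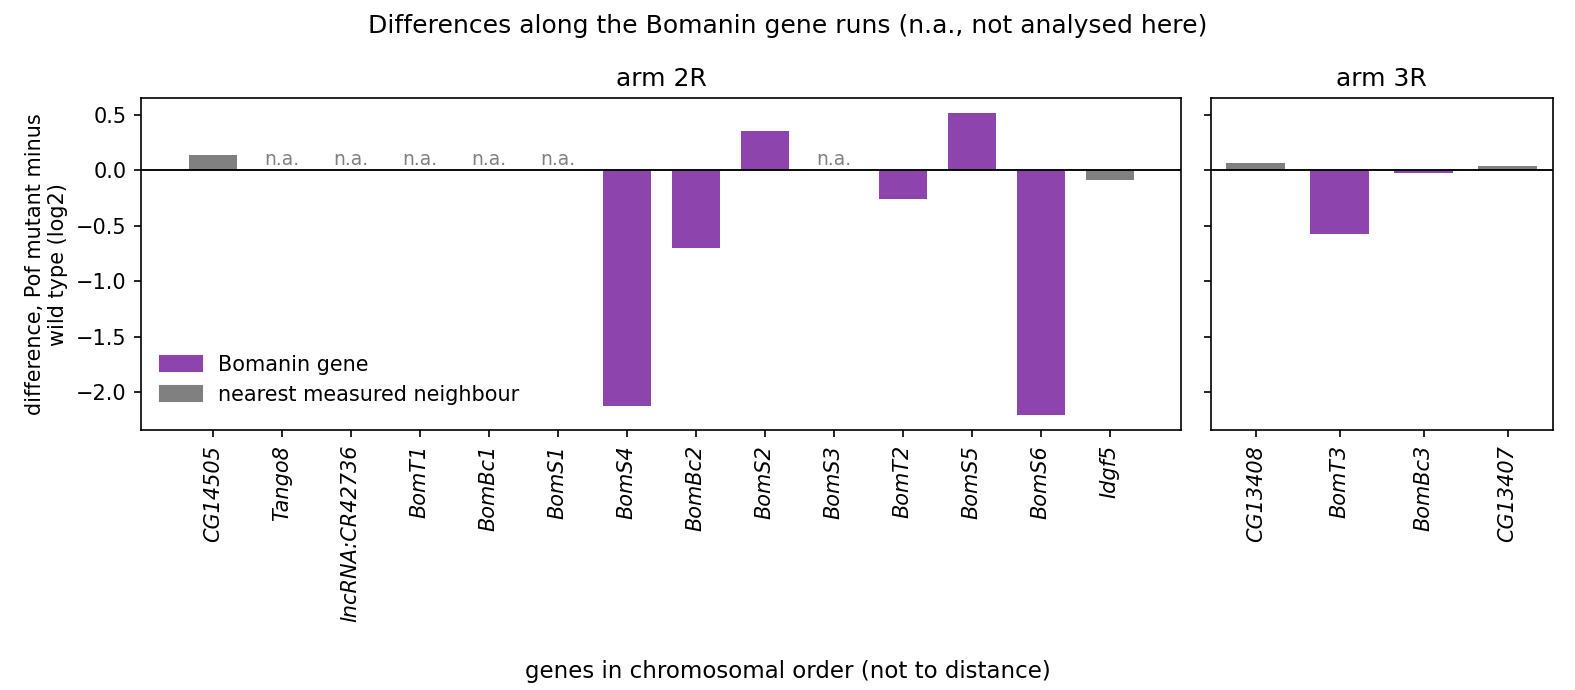
Difference of each measured gene, Pof mutant minus wild type (log2, vertical axis), with genes in chromosomal order and not to distance; purple bars are Bomanin genes and grey bars the nearest measured neighbours. Along 2R the bars of BomS4 (-2.13) and BomS6 (-2.21) stand at separate places, with BomS5 (0.52) beside BomS6.

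The 6 genes did not share one profile over the arrays. Likeness was measured as the root mean square distance between profiles centred on each gene's mean (log2). Among the 15 pairs of the 6 genes the smallest distance was between BomS2 and BomS5 (0.24), and BomS4 and BomS6 were 0.31 apart. The largest distance, 1.40, separated the neighbours BomS5 and BomS6, and BomS4 and BomS5 were 1.38 apart. Replicate 3 was the highest mutant-labelled array for 5 of the 6 genes, against 25.5% of all genes, and BomBc3 was the exception. Replicate 1 was the lowest for 4 of the 6, against 31.5% of all genes. In wild type, replicate 2 was the lowest array for 5 of the 6, against 17.3% of all genes. The genes share arrays and most lie in 1 cluster, so these counts are a description.

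Some genes outside the family had profiles near the mean centred profile of the 6 Bomanin genes over the 6 arrays. The nearest of 11974 genes were whd, a carnitine palmitoyltransferase gene, at a distance of 0.14, GIIIspla2, named for a secreted phospholipase, at 0.14, and GNBP3, a recognition protein for fungal glucan upstream of Toll, at 0.15. They were followed by snu, CG12115 and CG6901, each at 0.16. GNBP3 read 8.24, 8.22 and 8.41 on the mutant-labelled arrays, against 9.21, 8.75 and 8.64 on the wild type arrays, without overlap (-0.58, SE 0.15, limma adjusted p = 0.120). Nearness to a mean profile that holds the group difference makes such a gap likely, so these values are a description. For BomS4 alone, looked up after the values were seen, the nearest gene was the alkaline phosphatase gene Alp7 at 0.18, and for BomS6 it was the formin gene dia at 0.39. Alp7 and dia ranked 9 and 7 from the lowest difference, so their nearness largely restates a similar group difference.

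The rest of the immune system was read through 5 lists of other immune genes. Of 92 listed genes 62 were measured, and limma called 0 of them in either direction, where 4.09% of all genes were called. Without adjustment, 6 lay higher and 6 lower at a limma p under 0.05. Over all genes 2009 of 11982 had such a p in either direction, so these counts are not read as an immune result. The list medians lay between -0.03 for the Imd pathway and 0.08 for the antimicrobial peptides.

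**Figure D4:**
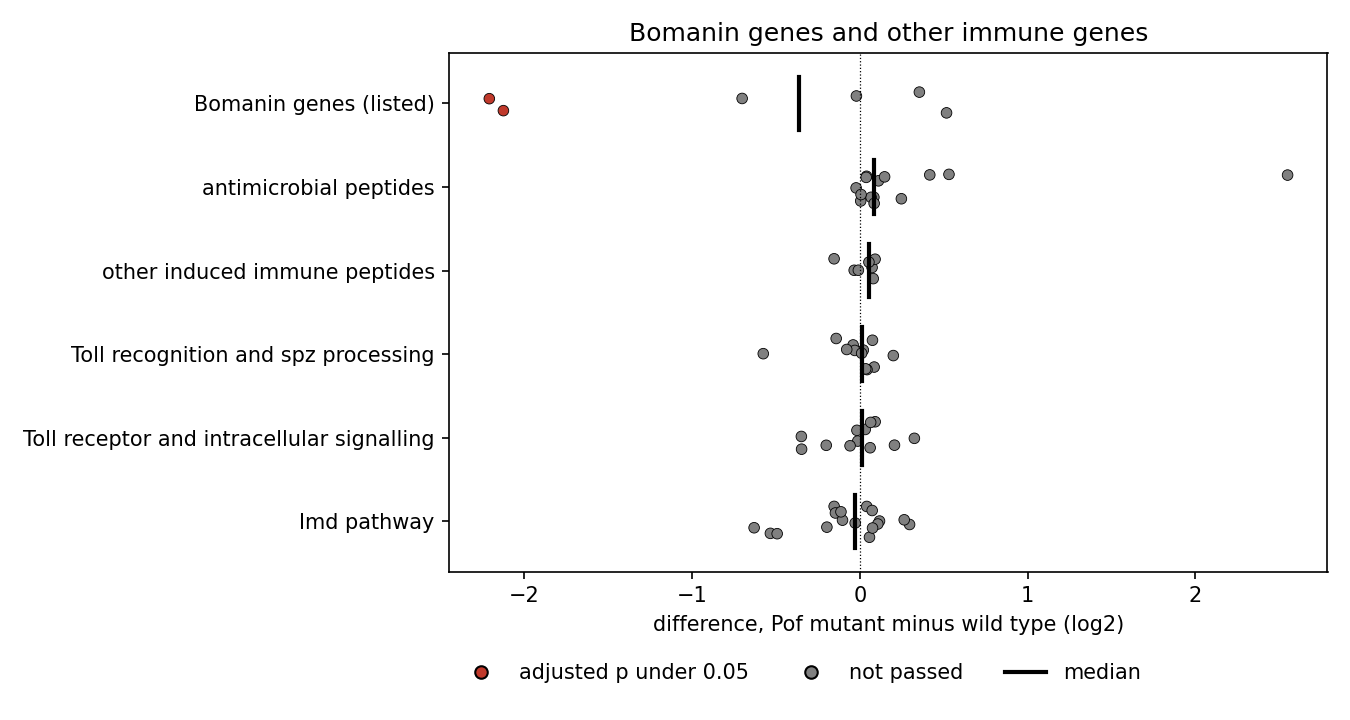
Difference, Pof mutant minus wild type (log2, horizontal axis), of each of the 6 listed Bomanin genes and of the measured genes of 5 immune lists; red points have an adjusted p under 0.05, grey points do not, and black lines are list medians. The red points are BomS4 and BomS6, by whose values the family was chosen, and the far right grey point is Mtk at 2.55.

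Among effectors, limma called 0 of 14 antimicrobial peptide genes, and at a p under 0.05 before adjustment it gave 3 higher and 0 lower. Such a p was reached by 2009 of all 11982 genes, in either direction. Mtk, the antifungal peptide metchnikowin, read 8.13, 8.71 and 6.09 on the mutant-labelled arrays, against 5.17, 4.87 and 5.23 on the wild type arrays. Its groups did not overlap and lay in the opposite order to those of BomS4 and BomS6, with mutant-labelled replicate 3 nearest to wild type (2.55, SE 0.60, limma adjusted p = 0.0833). AttD, an attacin, read 5.20, 5.37 and 4.62 on the mutant-labelled arrays, against 4.64, 4.46 and 4.50 on the wild type arrays (0.53, limma adjusted p = 0.248). DptB, a diptericin, read 7.55, 7.69 and 7.09 on the mutant-labelled arrays, against 7.08, 6.97 and 7.03 on the wild type arrays (0.42, limma adjusted p = 0.275). For these 3 genes mutant-labelled replicate 3 was the lowest of its group, whereas it was the highest for 5 of the 6 Bomanin genes. Without that array Mtk, AttD and DptB passed (3.33, 0.75 and 0.60, limma adjusted p = 0.00278, 0.0239 and 0.0337). Leaving out the lowest mutant-labelled value raises the difference by construction, so this fit is no support for a difference. None of the 3 passed with any other single array left out (for Mtk, limma adjusted p between 0.0873 and 0.274). Drs, the antifungal drosomycin and a standard readout of Toll, read 7.36, 9.50 and 8.00 on the mutant-labelled arrays, against 7.35, 7.49 and 9.27 on the wild type arrays, and its groups overlapped (0.25, limma adjusted p = 0.934); it lies outside the rule for named genes and was added after its values were seen. Drsl5, a drosomycin-like gene, gave 0.15 (limma adjusted p = 0.491). Of 7 other induced peptide genes limma called 0, and 0 had a p under 0.05 before adjustment; IM33 gave -0.15, TotB 0.09, the clotting factor fon 0.08 and TotZ 0.05.

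**Figure D5:**
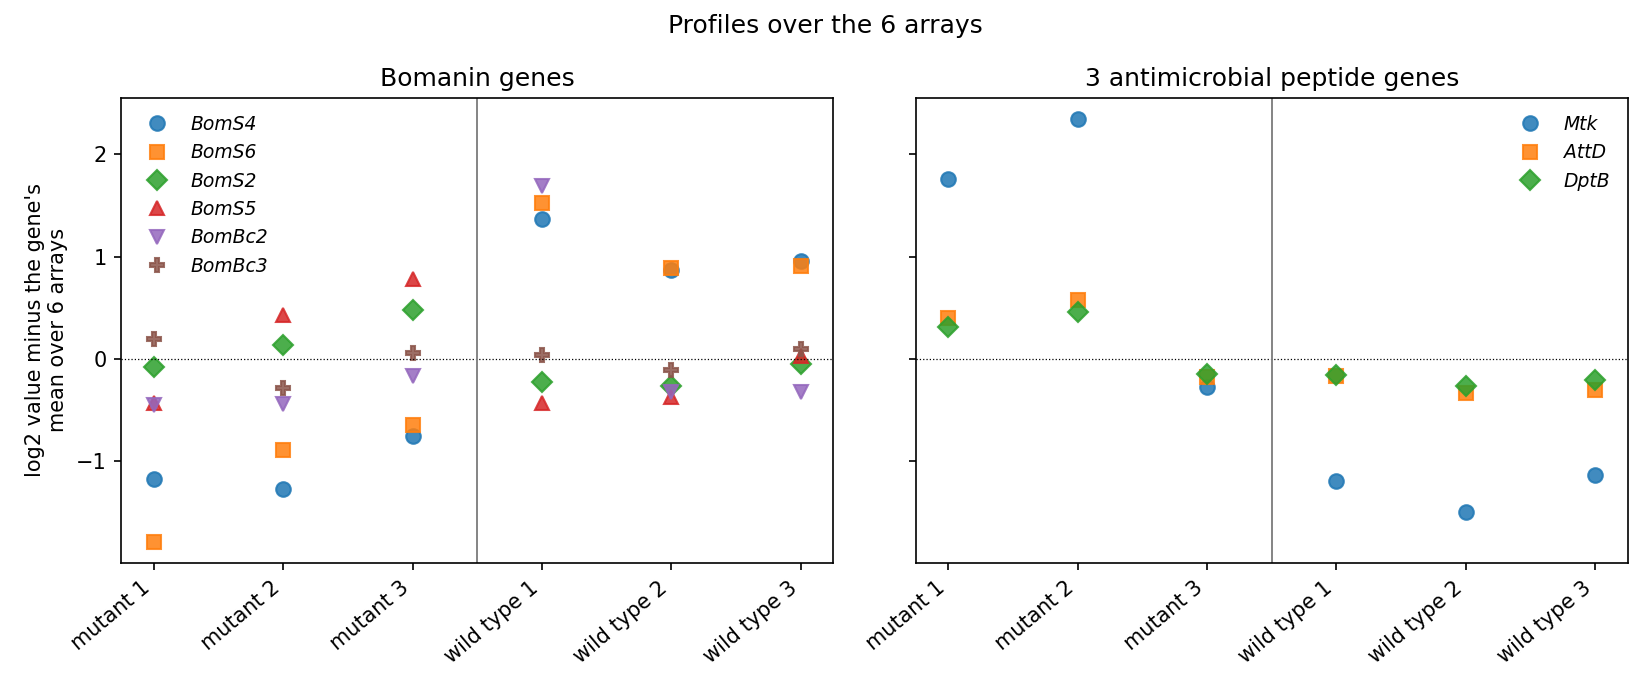
Log2 value on each array minus the gene's mean over the 6 arrays, for the 6 listed Bomanin genes and for Mtk, AttD and DptB, with Pof mutant arrays left of the grey line and wild type arrays right of it. BomS4 and BomS6 are below their means on every mutant array, and Mtk is at 8.13 and 8.71 on mutant replicates 1 and 2 against 6.09 on replicate 3 before centring.

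Recognition and signalling genes of the Toll and Imd pathways followed the effectors on the lists. Of 12 genes of Toll recognition and spz processing limma called 0. Before adjustment a p under 0.05 was reached by the protease gene Sp7, higher at 0.20 (limma adjusted p = 0.342), and by GNBP3, lower as given above. GNBP2 and the protease gene grass gave -0.14 and 0.09. Of 12 genes from the receptor to the nucleus limma called 0. The kinase gene Gprk2 was the 1 gene with a p under 0.05 before adjustment (-0.35, limma adjusted p = 0.270), and Deaf1 gave -0.35, Traf6 0.33 and Pli, the pellino gene, 0.21. The Deaf1 difference rests on mutant-labelled replicate 2, which read 7.42, against 8.38 and 8.24 on mutant-labelled replicates 1 and 3. The receptor gene Tl gave -0.01 (limma adjusted p = 0.980) on its brighter probe set. A dimmer Tl probe set, added after its values were seen, gave -0.59 (limma adjusted p = 0.0349). It did not pass when any of wild type replicates 2 and 3 or mutant-labelled replicates 1, 2 and 3 was left out (0.0569 to 0.153). Its difference lay between -0.66 and -0.54 in those fits, which called fewer genes of all kinds. Without wild type replicate 1, the array that stood apart, the dimmer probe set passed (-0.69, limma adjusted p = 0.00911). Of 17 genes of the Imd pathway, the other NF-kappaB pathway of fly immunity, limma called 0. Before adjustment 2 lay higher and 4 lower at a p under 0.05, where 2009 of all 11982 genes had such a p in either direction. The peptidoglycan recognition genes PGRP-SC2 and PGRP-LA gave -0.63 and -0.53 (limma adjusted p = 0.103 and 0.0944), akirin -0.49 and the caspase gene Dredd 0.26.

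Markers of 5 tissues were set beside these values. The unlogged values of the 6 measured fat body genes of 10 listed summed to 23274 to 24713 on the mutant-labelled arrays, against 21134 to 22276 on the wild type arrays. These sums are nearly all from the fatty acid synthase gene FASN1, with a difference of -0.02, and the lipophorin gene apolpp, with 0.40 (SE 0.09), and of this pair apolpp is the gene whose groups do not overlap. Of the 6 genes 0 were called, and their median difference was 0.06. Fbp1, Fbp2 and Lsp2, fat body genes of later larvae, averaged 6.16, 5.27 and 6.61 on the mutant-labelled arrays, against 6.11, 5.21 and 6.43 on the wild type arrays. The 11 measured hemocyte genes, from 12 listed names, summed to 2305 to 2395 on the mutant-labelled arrays, against 2212 to 2583 on the wild type arrays. Of these 0 were called, and 1 lay below the lower quartile on every array. The median difference of the 11 was 0.12. Their array medians were 7.70, 7.88 and 7.89 under the mutant label and 7.67, 7.50 and 7.57 in wild type, without overlap. The 23 midgut protease genes (Jonah and trypsin families) summed to 140717 to 159572 on the mutant-labelled arrays, against 125586 to 137292 on the wild type arrays, without overlap. Of these, 4 were called higher and 1 lower, where 2.65% of all genes were called higher and 1.44% lower. The median difference of the 23 was 0.29. The 3 measured neuron genes of 4 listed summed to 1077, 596 and 1295 on mutant-labelled replicates 1, 2 and 3, against 1231 to 1251 on the wild type arrays, with 0 called. The 2 measured muscle genes of 5 listed summed to 6692 to 7096 on the mutant-labelled arrays, against 6525 to 7181 on the wild type arrays, with 0 called. The part of any of these tissues in the BomS4 and BomS6 differences was not tested.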

How the data were processed

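The authors deposited 1 log2 value for each probe set and array, computed by RMA according to the submitters' processing notes, with no version stated there. RMA usually normalizes arrays together; then a shift shared by most genes would be removed. The table held 18952 probe sets; 183 controls were left out. In the platform annotation 13647 of the remaining 18769 had 1 gene symbol, 402 several and 4720 none; 13544 were matched by gene ID to the Release 6 plus ISO1 MT table, which updated symbols and gave gene order. A gene stands for its brightest single-gene probe set.

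All probe sets were fitted in limma 3.58.1 (R 4.3.3; lmFit, eBayes, no covariates, no filter on low values), with Benjamini-Hochberg adjustment over all of them. The procedure was tested on simulated data. The Bomanin genes, the immune and marker lists, the alternatives and the rule for other named genes (listed genes with the smallest p, up to 4 a list, the 6 nearest profiles, and gene neighbours) were chosen with earlier results of these data known. Precision is limited by 3 arrays a group. Alternatives were filters on dim probe sets, further normalizations, variance models, array weights, a replicate block, arrays left out, averaged probe sets and a looser threshold.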

Additional observations from a re-analysis of the deposited data

How the results depend on the processing

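BomS4 and BomS6 were called lower, and the other 4 Bomanin genes were not called, in each of 16 alternatives that held them, including those without 1 array. The family was chosen by these same values, so the calls show only how processing bears on them and are no support for a difference. BomS4 ranged from -2.28 to -1.87 and BomS6 from -2.44 to -1.86. The median difference of the Bomanin genes was -1.41 with the upper 60% of probe sets, which kept 4 of them, and -2.17 with the upper 40%, which kept 2; fewer genes entered these medians. It lay between -0.56 and -0.02 with 1 array left out, and was 0.07 without both wild type replicate 1 and Pof mutant replicate 2, an alternative chosen after seeing the data. The number of all genes called was 490, 840 with array weights, 712 without both of those arrays, and 202 to 536 with 1 array left out; the cause was not tested. Of the 62 other immune genes, 0 were called, but 2 were called with array weights (PGRP-LA and PGRP-SC2), 1 with the replicate block (PGRP-LA), 2 at an adjusted p under 0.10 (Mtk and PGRP-LA) and 2 without wild type replicate 1 and Pof mutant replicate 2 (SPE and PGRP-SC2). With 1 array left out the number was 0 to 3. Deviations of equally numbered arrays correlated at 0.18, 0.13 and 0.03. Those of unequally numbered arrays correlated at -0.19, -0.16, -0.13, -0.01, -0.01 and 0.15, the last between mutant-labelled replicate 2 and wild type replicate 3. The labels give no batch, so the main fit did not take the numbers as pairs, and these values do not settle whether they are. With the replicate block 476 genes were called, BomS4 and BomS6 among them. Dim signals (BomS2, BomS5, BomT2, BomT3) cannot be set against background here.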
